A study of Mus musculus with 9 samples.

Results

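The RNA levels of the Rag GTPases, the 5 subunits of the Ragulator complex and folliculin were compared between kidneys of young and old mice. The genes were chosen by symbol, as a list of 10 (Rraga, Rragb, Rragc, Rragd, Lamtor1, Lamtor2, Lamtor3, Lamtor4, Lamtor5 and Flcn), and 9 of the 10 had a row among the 13081 genes of the deposited table. No row carried Rragb, which was not analysed here. All 9 stood above the filter on low counts, and so belonged to the 12667 genes tested. The kidneys came from wild-type mice aged 3 months (young, n = 4) and 16 months (old, n = 5), each library from a different mouse, and no engineered allele or drug is named for either group. The study's methods give C57BL/6 as the strain. The sex of the mice behind each library was not used here. RNA was primed at the poly(A) tail and sequenced from transcript ends, and the unit throughout is the normalised count, which is a gene's reads over the size factor of its library. The comparison asks how kidney expression of these genes differs between the ages.

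Rag GTPases are small G proteins that sit on the lysosome as a heterodimer of RagA or RagB with RagC or RagD. When amino acids are plentiful the dimer recruits the kinase complex mTORC1 to the lysosomal surface, where the GTPase Rheb activates it. Ragulator is the pentamer that anchors the dimer to the membrane, and folliculin is the GTPase-activating protein for RagC and RagD, needed for mTORC1 to phosphorylate the transcription factors TFEB and TFE3. In the kidney, loss of folliculin is known for cysts and tumours.

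TFEB and its relatives bind the E-box letters CACGTG, so the 250 bases upstream of the genes' starts are shown for the 3 members of the table that hold these letters and for Rraga, the gene with the largest change, which does not. The sequences are from RefSeq on build GRCm38.p6, read 5' to 3' on the strand of the gene, with the motif in capitals. The windows are chr7:101905587-101905836 for Lamtor1, chr5:138255232-138255481 for Lamtor4, chr4:123917183-123917432 for Rragc and chr4:86575423-86575672 for Rraga, all on the + strand.
Lamtor1: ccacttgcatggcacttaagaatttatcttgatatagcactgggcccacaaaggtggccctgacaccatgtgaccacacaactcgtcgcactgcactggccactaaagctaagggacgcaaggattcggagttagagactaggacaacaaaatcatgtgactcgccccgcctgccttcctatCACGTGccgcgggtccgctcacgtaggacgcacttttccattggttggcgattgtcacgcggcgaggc
Lamtor4: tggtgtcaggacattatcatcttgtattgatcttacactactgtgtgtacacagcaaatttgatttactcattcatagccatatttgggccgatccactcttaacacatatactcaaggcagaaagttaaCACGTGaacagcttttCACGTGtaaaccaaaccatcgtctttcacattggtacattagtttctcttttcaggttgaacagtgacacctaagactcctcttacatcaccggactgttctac
Rragc: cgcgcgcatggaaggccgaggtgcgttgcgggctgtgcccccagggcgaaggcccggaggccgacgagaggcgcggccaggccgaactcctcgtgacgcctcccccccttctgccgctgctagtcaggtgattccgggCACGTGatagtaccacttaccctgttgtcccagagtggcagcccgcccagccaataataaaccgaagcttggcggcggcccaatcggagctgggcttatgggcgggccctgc
Rraga: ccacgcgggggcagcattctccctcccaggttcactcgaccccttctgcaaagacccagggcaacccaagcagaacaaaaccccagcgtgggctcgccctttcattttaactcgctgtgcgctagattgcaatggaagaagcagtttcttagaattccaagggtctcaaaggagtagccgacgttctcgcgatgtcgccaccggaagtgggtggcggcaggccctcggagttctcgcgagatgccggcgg

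The motif stood 68 bases upstream of the start in Lamtor1, 112 bases upstream in Rragc, and 120 and 104 bases upstream in Lamtor4. CACGTG is its own reverse complement, so 1 search covered both strands. Of the 10 listed genes 9 had a RefSeq upstream sequence, and Lamtor3 was not matched. The motif was present in 3 of the 8 matched genes with a row, beside 8.37% of the 12635 upstream windows of table genes and 6.02% of all 32851 windows. Lamtor4, with 2 matches, stood beside 0.73% of the windows of table genes with at least 2. Of the members with the motif, Lamtor1 rose in old kidneys, while Lamtor4 and Rragc did not pass the test. Of the matched members without it, Rraga, Rragd and Flcn fell, and Lamtor2 and Lamtor5 did not pass the test. These genes are too few to relate the motif to a direction of change, and such a relation was not tested. A match of letters is a description of the sequence and not a binding site.

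The libraries held 5093029 to 6355095 reads in young and 4486406 to 5794960 in old kidneys, summed over the genes of the table. The library names carried 1 prefix for the young and another for the old mice, so that a difference in preparation between the ages, if there was one, cannot be told apart from age. Mitochondrially encoded genes took 27.0% to 29.7% of the reads in young and 35.8% to 38.1% in old libraries, and the mitochondrial rRNAs alone 2.98% to 4.46% and 21.8% to 25.4%. Proximal tubule markers, summed over all 5 on the list, ranged from 28183 to 29084 normalised counts in young and from 25136 to 32690 in old kidneys, with 1 of the 5 called higher and 3 lower. Of the other lists, 2 had summed levels that were higher in every old library than in any young one. These were 9416 to 9796 against 12268 to 16227 for the 4 loop and distal tubule markers (2 called higher and 1 lower) and 716 to 796 against 955 to 1146 for the 4 endothelial markers (2 called higher and none lower). The 4 macrophage markers summed to 430 to 511 and to 457 to 663 (2 called higher and none lower). The ranges of the ages also overlapped for podocyte, collecting duct, fibroblast, lymphocyte, adipocyte and erythroid markers. Calls higher and lower numbered 3 and 1 for podocyte, 1 and 2 for collecting duct, and 1 and 2 for fibroblast markers. They numbered 1 and 0 for lymphocyte, 0 and 1 for adipocyte, and 1 and 1 for erythroid markers. None of the 4 adrenal cortex markers had a row. The part of these shifts in the results that follow was not tested, and in bulk RNA fewer cells of a type cannot be told apart from less RNA per cell.

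Among the 9 members 4 fell with age (Rraga, Flcn, Lamtor3 and Rragd), 1 rose (Lamtor1) and 4 did not pass the test (Rragc, Lamtor2, Lamtor4 and Lamtor5). Calls are adjusted p-values under 0.05 in limma, fitted over all 12667 genes. Over all genes 59.7% were called, 29.2% higher and 30.5% lower in old kidneys, so the number of calls does not set the members apart. On the whole reads recovered from the table, edgeR called 60.4% of the genes (30.3% higher, 30.1% lower) and DESeq2 59.5% (29.7% higher, 29.8% lower), and each member was called in the same direction or, for the 4 others, not called. The sizes spread widely. The median log2 fold change of the members was -0.21, beside -0.0027 for all genes, and the changes ran from -4.27 for Rraga to 0.31 for Lamtor1. In 3 members (Rraga, Lamtor3 and Flcn) the young and old libraries did not overlap, beside 49.0% of all genes tested.

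**Figure D1:**
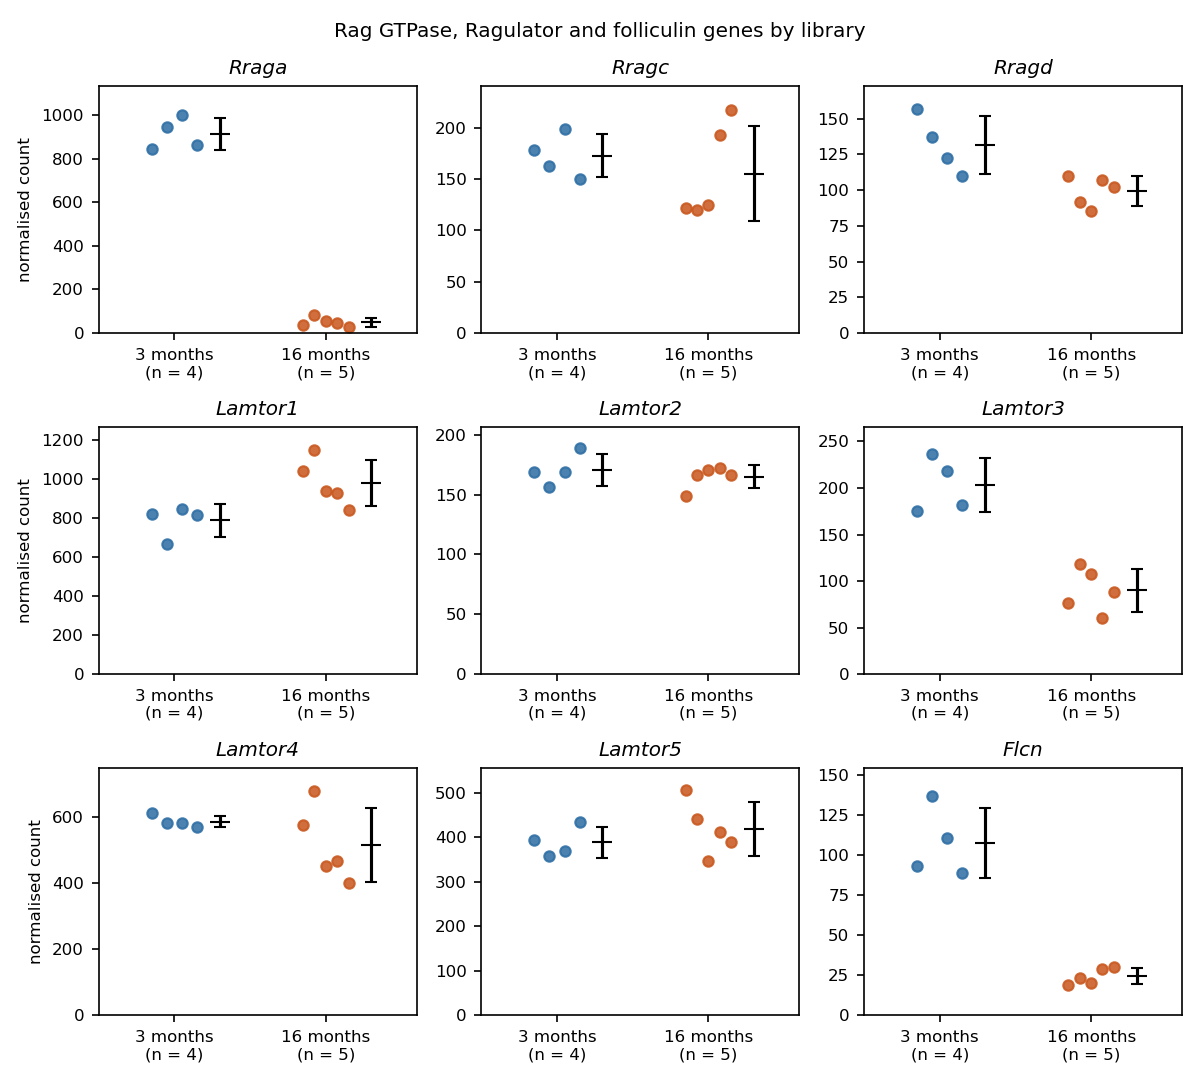
Normalised counts (vertical axes, each starting at 0) of the 9 genes in each young (3 months, n = 4, blue) and old (16 months, n = 5, orange) kidney library, with the mean and SD as bars. Old libraries sit at 29.7 to 83.1 for Rraga against 843 to 1001 in young ones, the ages are also apart for Lamtor3 and Flcn, and they overlap for the other 6 genes.

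Rraga, which encodes RagA, had the largest change of the members. It is a gene of 1 exon (chr4:86575668-86577285 on GRCm38, + strand, transcript of 1618 bases). Its normalised counts were 843, 945, 1001 and 862 in the young libraries and 35.4, 83.1, 55.8, 43.8 and 29.7 in the old ones. Every old library was thus far below every young one. The mean was 913 ± 73.9 (SD, n = 4) in young and 49.6 ± 21.2 (SD, n = 5) in old kidneys. The fitted log2 fold change was -4.27, or 19.2-fold lower on the log2(normalised count + 1) scale of the fit, on which all fold changes are given (SE 0.21, 95% interval -4.70 to -3.83, limma adjusted p = 8.12e-12). The old values rest on 28 to 76 reads per library and the young ones on 952 to 1029. Of all genes tested 20 had a lower log2 fold change. The old libraries also varied more among themselves, with an SD on the log2 scale of 0.57 against 0.12 in young. No 50-base stretch of the last 500 bases of its transcript was shared with another annotated gene.

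The members of the RagC and RagD pair moved far less. Rragc encodes RagC, the GTPase that folliculin acts on (chr4:123917446-123936997, + strand, 7 exons). Its counts were 179, 163, 199 and 150 in young kidneys and 121, 120, 125, 193 and 217 in old ones. Old libraries 4 and 5 lay within or above the young range, and the other 3 lay below it. The means were 173 ± 21.0 (SD, n = 4) and 155 ± 46.4 (SD, n = 5), and the log2 fold change of -0.19 did not pass the test (SE 0.17, 95% interval -0.56 to 0.17, limma adjusted p = 0.353). The gene overlaps Gm12902 on the same strand, which had no row in the table.

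Rragd encodes RagD, and its transcription is known to be driven by TFEB (chr4:32983037-33022180, + strand, 8 exons). Its counts were 156, 137, 123 and 109.5 in young and 109.6, 91.9, 85.2, 107 and 102 in old kidneys. The ages met at the lowest young and the highest old library. Rragd fell from a mean of 131 ± 20.1 (SD, n = 4) to 99.2 ± 10.4 (SD, n = 5), with a fitted log2 fold change of -0.40, or 1.32-fold (SE 0.14, 95% interval -0.69 to -0.10, limma adjusted p = 0.0221). This call was lost without young library 1 (log2 fold change -0.31, adjusted p = 0.101), without young library 2 (-0.37, 0.0611), and when every library was rescaled to the same total of non-mitochondrial reads (-0.26, 0.115). That rescaling called 60.5% of all genes, 35.4% higher and 25.1% lower.

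Because the Rag proteins work as heterodimers, the genes were also compared within each library, as differences of log2(normalised count + 1). Such a difference does not depend on the size factor, apart from the 1 added. The Rraga value minus the Rragc value was 2.23 to 2.53 in young and -2.83 to -0.53 in old libraries, a change of -4.07. Against Rragd it went from 2.42 to 3.02 in young to -1.74 to -0.14 in old, a change of -3.87. In both, all 5 old libraries lay below all 4 young ones (exact two-sided permutation test over libraries, p = 0.0159, adjusted over 3 differences 0.0238). With 126 ways to split the libraries 0.0159 is the smallest p the design allows. Without any 1 young library both calls were lost (exact permutation, adjusted p = 0.0536), each at the smallest p that 3 against 5 libraries allow, with changes of -4.13 to -4.03 and of -3.99 to -3.79. The Rragc minus Rragd difference was 0.19 to 0.70 in young and 0.15 to 1.09 in old, and its change of 0.20 did not pass the test (exact permutation p = 0.381). The differences of Rraga were chosen after the values were seen, in place of the planned Rraga and Rragb pair. Their separation by age was thus known beforehand, and they add no support beyond the fall of Rraga itself.

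Within Ragulator the 5 subunits did not move together. Lamtor1 rose, Lamtor3 fell and the other 3 did not pass the test. With a trend on transcript length removed, Lamtor2 and Lamtor5 were called higher (log2 fold changes of 0.40 and 0.52, limma adjusted p = 0.00736 and 0.000312) and Lamtor4 changed sign (0.21, 0.120).

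Lamtor1 carries the lipid anchor that holds the complex on the lysosome (chr7:101905904-101926675, + strand, 5 exons). Its counts were 824, 666, 850 and 818 in young and 1046, 1151, 941, 931 and 842 in old kidneys. Old library 5 lay just under the highest young library, and the other 4 old libraries lay above all young ones. The mean rose from 789 ± 83.7 (SD, n = 4) to 982 ± 119 (SD, n = 5), with a fitted log2 fold change of 0.31, or 1.24-fold (SE 0.11, 95% interval 0.09 to 0.54, limma adjusted p = 0.0164). Young library 2 decided the call, and without it the log2 fold change was 0.23 (limma adjusted p = 0.0873). Lrrc51 lies on the opposite strand over this gene and was also in the table. The authors' counting used strand.

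Lamtor3, also known as MP1, pairs with Lamtor2 as a dimer of roadblock-type proteins inside the complex (chr3:137918506-137928900, + strand, 7 exons). Its counts were 175, 237, 219 and 182 in young and 76.6, 118, 108, 60.6 and 88.0 in old kidneys. The highest old library was well below the lowest young one. The mean fell from 203 ± 29.5 (SD, n = 4) to 90.2 ± 23.1 (SD, n = 5), with a fitted log2 fold change of -1.19, or 2.28-fold (SE 0.17, 95% interval -1.56 to -0.83, limma adjusted p = 1.03e-05). Of all genes tested 1324 had a lower log2 fold change.

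Lamtor2, its partner (chr3:88549819-88553074, - strand, 4 exons), had counts of 169, 156, 169 and 189 in young and 149, 166, 170, 173 and 167 in old kidneys. All old libraries but library 1 lay inside the young range. The log2 fold change was -0.05 (SE 0.11, 95% interval -0.29 to 0.19, limma adjusted p = 0.731).

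Lamtor4 and Lamtor5 form the other roadblock-type pair. Lamtor4 (chr5:138255482-138259398, + strand, 4 exons) had counts of 613, 583, 582 and 571 in young and 576, 680, 453, 467 and 399.9 in old kidneys. The young libraries were close to each other, with an SD of 0.04 on the log2 scale, while the old ones spread on both sides of them with an SD of 0.30. The log2 fold change of -0.21 did not pass the test (SE 0.13, 95% interval -0.48 to 0.05, limma adjusted p = 0.157). Old library 2, the highest, decided this, and without it the value was -0.32 (limma adjusted p = 0.0161). Lamtor5 (chr3:107278858-107284082, + strand, 4 exons) had counts of 395, 358, 369 and 435 in young and 507, 441, 346, 412 and 389 in old kidneys. The old range enclosed the young one, and the log2 fold change was 0.10 (SE 0.11, 95% interval -0.14 to 0.34, limma adjusted p = 0.470). Of the 50-base stretches in the last 500 bases of the Lamtor5 transcript 14.6% also occur in Gm15190, so its count is less certain than those of the other members.

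Each pair of subunits was then compared within libraries, to test whether their changes differed. Of the 10 pairs 7 had an adjusted p under 0.05 (exact two-sided permutation tests, adjusted over the 10 pairs). All 4 pairs with Lamtor3 were among them. Relative to Lamtor3, the log2 difference grew by 1.50 for Lamtor1 and by 1.14 for Lamtor2, and the Lamtor3 value changed by -0.98 against Lamtor4 and by -1.29 against Lamtor5 (each exact permutation p = 0.0159, adjusted 0.0265). Lamtor1 gained 0.36 on Lamtor2 and 0.53 on Lamtor4 (exact permutation, adjusted p = 0.0265 for both). Lamtor4 changed by -0.31 against Lamtor5 (exact permutation p = 0.0317, adjusted 0.0454), a call that was also lost without old library 1, 3, 4 or 5 (changes of -0.29, -0.34, -0.29 and -0.25, exact permutation adjusted p of 0.0714 to 0.0816). The remaining pairs did not pass the test, with changes of 0.21 for Lamtor1 minus Lamtor5 (exact permutation, adjusted p = 0.139), 0.16 for Lamtor2 minus Lamtor4 (0.413) and -0.15 for Lamtor2 minus Lamtor5 (0.406). With any young library left out no pair was called (exact permutation, adjusted p of 0.0510 or more), where the smallest p the design allows is 0.0357 before the adjustment. The changes themselves kept their signs in the 7 called pairs.

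**Figure D2:**
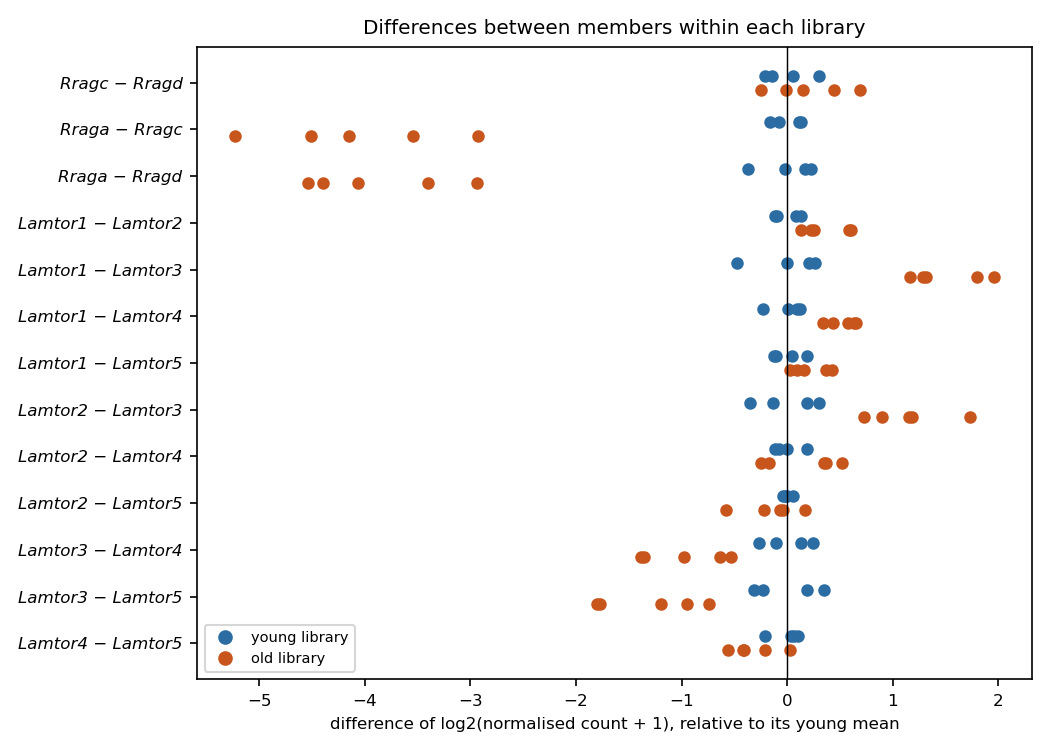
Within-library differences of log2(normalised count + 1) between pairs of genes (rows), each shown relative to its mean over the young libraries (horizontal axis, log2 units), with 1 point per library (blue young, n = 4, orange old, n = 5). The old libraries lie far to the left for the pairs of Rraga with Rragc (change -4.07) and Rragd (-3.87), and the 4 pairs that include Lamtor3 are the furthest apart within Ragulator.

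Flcn encodes folliculin (chr11:59791408-59810016, - strand, 13 exons, transcript of 3437 bases). Its counts were 93.4, 137, 111 and 88.7 in young and 18.9, 23.0, 20.3, 28.9 and 29.7 in old kidneys. All old libraries lay below all young ones, and the SD on the log2 scale was 0.28 at both ages. The mean fell from 107 ± 21.9 (SD, n = 4) to 24.1 ± 4.95 (SD, n = 5), with a fitted log2 fold change of -2.11, or 4.32-fold (SE 0.20, 95% interval -2.53 to -1.69, limma adjusted p = 5.99e-08). The counts rest on 98 to 141 reads per young library and 16 to 31 per old library. Of all genes tested 335 had a lower log2 fold change.

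**Figure D3:**
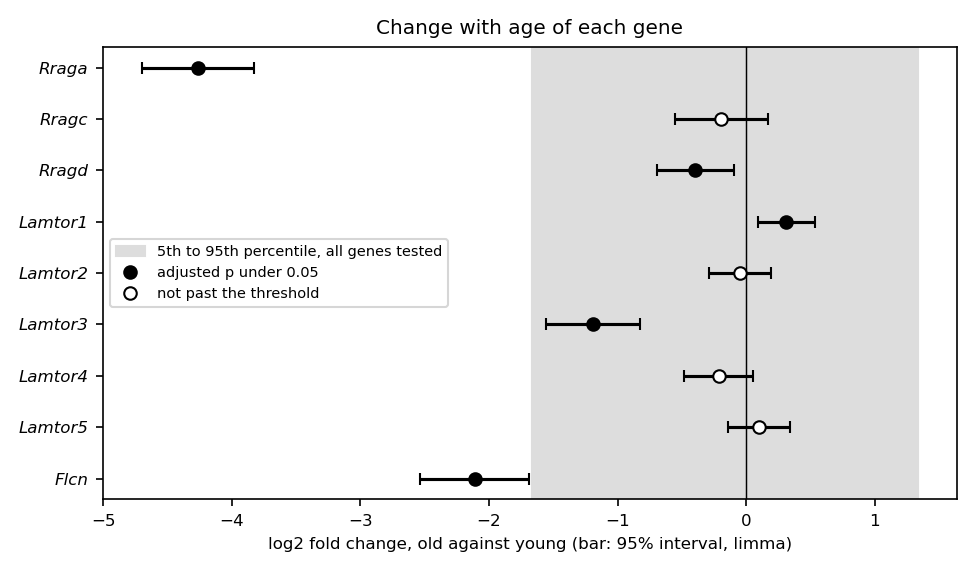
Log2 fold change (old against young, horizontal axis) of each gene with its 95% interval from limma as bars, filled where the adjusted p was under 0.05, over the 5th to 95th percentile of all 12667 genes tested (grey, -1.66 to 1.34). Rraga (-4.27) and Flcn (-2.11) lie outside the grey band and the other 7 genes inside it.

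The old libraries did not keep 1 order across the members. Old library 2 was the highest of the old ones in 4 of 9 members (Rraga, Lamtor1, Lamtor3 and Lamtor4) and the lowest for Rragc. Old library 5 was the lowest in 3 (Rraga, Lamtor1 and Lamtor4) and the highest for Rragc and Flcn. Over the 9 libraries, the genes whose levels followed Rraga most closely were Mppe1 (Pearson r = 0.999), Rida (0.998) and Ndfip2 (0.998). They were picked for this likeness, the libraries form 2 separate clusters by age, and the values are a description. Mppe1 went from a mean of 132 to 27.1 normalised counts, Rida from 4150 to 706 and Ndfip2 from 417 to 115, all with smaller log2 changes than Rraga (-2.26, -2.58 and -1.86).

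Around the members, 6 further lists held 63 genes of the same pathway, of which 61 were tested. There 15 rose, 25 fell and 21 did not pass the test, with a median log2 fold change of -0.09, and 36 had ages that did not overlap. These counts stand beside the 29.2%, 30.5% and 49.0% of all genes given above. Levels of these genes are the mean ± SD of the 4 young libraries and then of the 5 old ones.

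Of the partners of folliculin and the other regulators of the Rags, 3 of 5 tested genes fell and none rose. They were Sh3bp4, a binding partner of the Rag GTPases (65.6 ± 8.27 to 29.8 ± 6.01, log2 fold change -1.13, limma adjusted p = 9e-05), Rnf152, a ubiquitin ligase for RagA (418 ± 53.9 to 246 ± 48.9, -0.77, 0.000101), and Fnip2 (210 ± 8.71 to 160 ± 15.6, -0.40, 0.00555). Fnip1 and Fnip2 encode the proteins that folliculin binds. The call of Fnip2 was lost when libraries were rescaled to equal totals of non-mitochondrial reads (-0.26, limma adjusted p = 0.0675). Fnip1, with 225 ± 29.5 in young and 221 ± 18.6 in old kidneys, did not pass the test (-0.02, limma adjusted p = 0.904).

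GATOR1 is the GTPase-activating complex for RagA and RagB, and GATOR2, KICSTOR and the amino acid sensors act on it. Of 17 genes tested in this list 5 rose and 8 fell, and the median log2 fold change was -0.29. The highest were Sesn2, a leucine sensor (95.4 ± 20.8 to 329 ± 79.1, log2 fold change 1.77, limma adjusted p = 6.19e-08), and Depdc5, the GATOR1 subunit that contacts the Rag dimer (19.5 ± 4.08 to 53.5 ± 9.98, 1.42, 2.02e-05). Of the genes that fell, the 2 with the lowest adjusted p were Sec13, a GATOR2 subunit that also serves in the COPII coat and the nuclear pore (186 ± 7.42 to 28.0 ± 10.4, -2.78, limma adjusted p = 1.45e-08), and Nprl3, another GATOR1 subunit (70.4 ± 15.3 to 18.7 ± 7.79, -1.91, 4.13e-06). Nprl2, the GATOR1 subunit with the catalytic arginine finger, which is named here after its values were seen, also fell (97.0 ± 3.18 to 70.1 ± 11.5, -0.48, limma adjusted p = 0.0118). Subunits of GATOR1 thus moved in opposite directions.

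Of the 9 genes of mTORC1, Rheb and the TSC complex 1 rose and 4 fell. Without young library 4 the number that rose was 2, and with libraries rescaled to equal totals of non-mitochondrial reads it was 3. Deptor, an inhibitory partner of mTOR, rose from 462 ± 56.5 to 831 ± 142 (log2 fold change 0.84, limma adjusted p = 9.34e-06). Rheb, the GTPase that activates mTORC1, fell from 242 ± 24.9 to 104 ± 7.95 (-1.21, limma adjusted p = 1.09e-07), and Tbc1d7, a subunit of the TSC complex, from 76.7 ± 24.1 to 39.3 ± 11.9 (-0.95, 0.00224).

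Among the 4 MiT/TFE factors, whose location in the cell depends on the Rags, 2 rose and 1 fell. Mitf rose from 85.7 ± 8.77 to 137 ± 21.7 (log2 fold change 0.66, limma adjusted p = 0.00071) and Tfe3 from 95.2 ± 5.48 to 121 ± 14.7 (0.33, 0.0398). The call of Tfe3 was lost without young library 1, 2 or 3 (log2 fold change 0.30, 0.32 and 0.34, limma adjusted p = 0.101, 0.0831 and 0.0719). It was also lost without old library 4 or 5 (0.33 and 0.26, limma adjusted p = 0.0561 and 0.0960) and with equal table totals (0.28, 0.0833). Tfec fell from 55.3 ± 7.34 to 22.1 ± 11.2 (-1.48, limma adjusted p = 0.00149). Tfeb, at 60.4 ± 14.2 and 75.4 ± 21.2, did not pass the test (0.31, limma adjusted p = 0.212).

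The V-ATPase is the proton pump that contacts Ragulator. Of its 16 subunit genes 4 rose and 5 fell, shares near the 29.2% and 30.5% of all genes, and the median log2 fold change was -0.03. Atp6v1b2 fell from 1913 ± 136 to 365 ± 81.6 (-2.41, limma adjusted p = 2.25e-11) and Atp6ap2, an accessory subunit, from 664 ± 26.7 to 301 ± 39.1 (-1.15, 3.44e-08). Atp6v0a1 rose from 213 ± 12.8 to 348 ± 42.0 (0.70, limma adjusted p = 3.28e-05) and Atp6v1f from 1506 ± 79.2 to 2198 ± 177 (0.54, 3.99e-05). BORC is a complex that binds Ragulator and moves lysosomes through the GTPase Arl8. Of the 10 genes of this list 3 rose and 4 fell, also near the shares of all genes, and 5 rose when the libraries were rescaled to equal non-mitochondrial totals. Borcs5 fell from 69.7 ± 14.9 to 24.0 ± 11.9 (-1.58, limma adjusted p = 5.24e-05) and Arl8a from 123 ± 4.63 to 52.7 ± 10.7 (-1.23, 4.16e-06). Bloc1s1 rose from 452 ± 48.7 to 694 ± 84.4 (0.61, limma adjusted p = 8.76e-05) and Snapin from 72.2 ± 6.72 to 101 ± 8.10 (0.47, 0.00703).

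**Figure D4:**
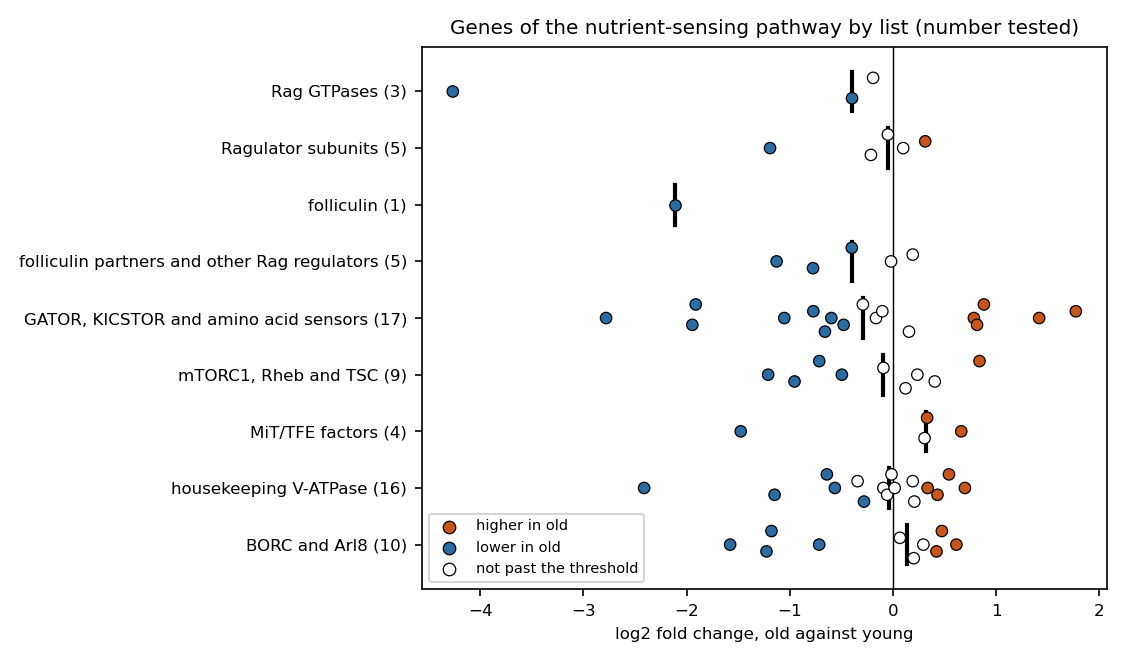
Log2 fold change (old against young, horizontal axis) of each tested gene by list (rows, number tested in brackets), coloured orange where higher in old and blue where lower at a limma adjusted p under 0.05, white otherwise, with the median of each list as a vertical bar. Rraga (-4.27), Sec13 (-2.78), Atp6v1b2 (-2.41) and Flcn (-2.11) lie furthest to the left, Sesn2 (1.77) and Depdc5 (1.42) furthest to the right, and each of the 6 further lists has genes on both sides of 0.

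The length of the transcripts moved with the change. Across 12455 genes with a length, which are not independent replicates, longer transcripts had higher changes (Spearman rho 0.284). Lamtor1 to Lamtor5 have transcripts of 668 to 1295 bases. With a trend on length removed from each library all 5 moved upwards. Lamtor1 stood at 0.69, and Lamtor2, Lamtor4 and Lamtor5 at the values given above, so that 3 members were called higher. Lamtor3 was still called lower at -0.85, and Rraga stood at -3.98. Of the other named genes that were called, 6 moved by more than 1.5 times and kept their call. Further from 0 were Fnip2 (-0.78), Rnf152 (-1.23), Atp6v1f (0.98) and Bloc1s1 (1.06), and nearer to 0 were Deptor (0.38, limma adjusted p = 0.00761) and Tbc1d7 (-0.60, 0.0425). The correction called 57.9% of all genes, 29.0% higher and 28.9% lower. Rraga, Lamtor3 and Flcn thus kept their call under every alternative tried for them, between -4.47 and -3.98, between -1.30 and -0.85 and between -2.19 and -1.95.

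**Figure D5:**
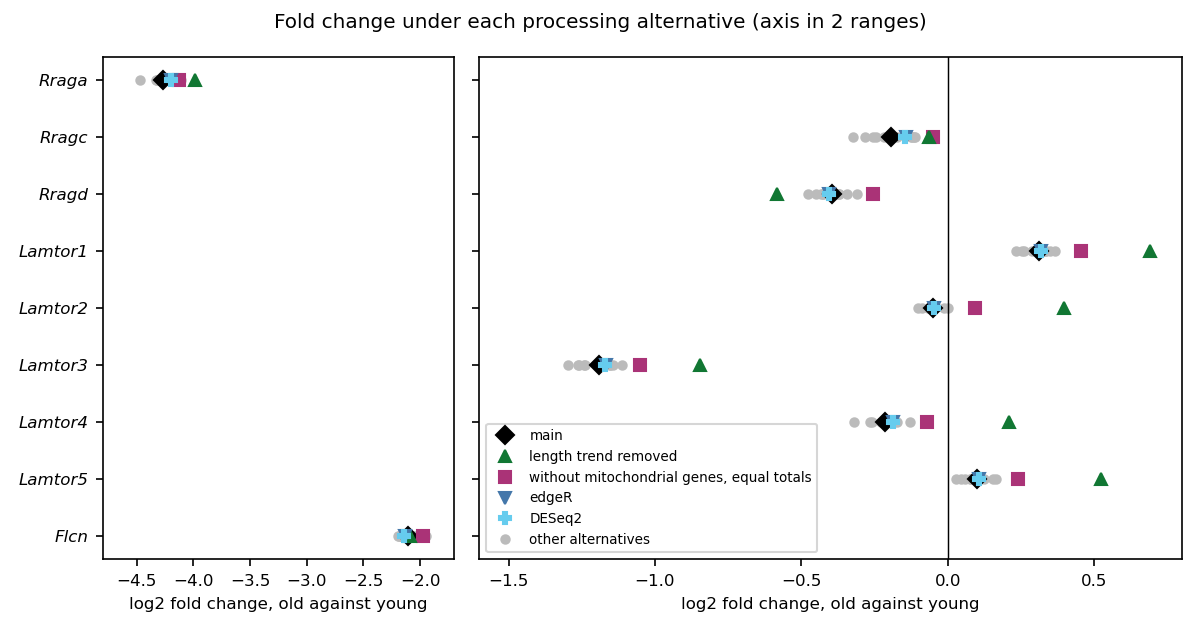
Log2 fold change (old against young, horizontal axis in 2 ranges) of each gene under the main processing (diamond), with the trend on transcript length removed (triangle), with libraries rescaled to equal totals of non-mitochondrial reads (square), with edgeR and DESeq2 on whole reads, and under the other alternatives (grey, each library left out in turn among them). Rraga, Lamtor3 and Flcn stay left of 0 throughout, while Lamtor2 and Lamtor4 cross 0 when the length trend is removed.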

How the data were processed

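Kidney RNA of 4 young and 5 old wild-type mice was sequenced, 1 library per mouse. Per the study's methods and the submitters' processing notes, the authors checked reads with FastQC 0.11.7, aligned them to GRCm39 with TopHat2 2.0.10, Bowtie 1.0.0 and SAMtools 0.1.19, counted them by strand with HTSeq 0.6.1 on GENCODE vM26 and normalised them with DESeq. The labels and the methods describe the QuantSeq library kit differently, and the labels alone name a version. The deposited values are a signal: read counts divided by 1 size factor per library, for 13081 genes whose lowest mean was 4.49. The steps of 1 read were recovered, and 100% of the values came out whole (tolerance 0.01 reads). A floor of 3 reads was 4.72e-05% to 6.69e-05% of a library and covers counting error only.

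Genes that reached 10 normalised counts in 4 or more libraries were tested with limma 3.58.1 (R 4.3.3) on log2(normalised count + 1), with no covariate and Benjamini-Hochberg adjustment over all 12667 genes. This scale understates the change of low genes. Exact two-sided permutation tests (scipy 1.17.1) compared gene pairs. edgeR 4.0.16 on the whole reads called 7649 genes and DESeq2 1.42.0 called 7532. The limma, edgeR and DESeq2 fits were tested on simulated counts of 12667 genes, of which 200 were changed. This is a far smaller share than the 59.7% called in the data, so the simulation did not cover changes this broad. Replicate libraries differed by more than counting noise (chi-square per degree of freedom of at least 2.82 in every pair within an age), so none was counted as a repeat. Library numbers follow listing order.

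The members and lists were chosen with earlier results of these data known. Named are all members, from each other list the 2 called genes with the lowest adjusted p in each direction, Fnip1, Fnip2, Tfeb and Tfe3 in any case, and the 3 genes most correlated with the member of largest change. Marker lists are given as summed levels. Gene positions, exons and transcript lengths (longest protein-coding transcript) come from GENCODE vM21 on GRCm38, a build other than the authors', and are used for annotation only. Lengths were found for 98.3% of the genes. Alternatives were other pseudocounts, filters, scalings, a length correction, other tools and each library left out in turn.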

Additional observations from a re-analysis of the deposited data

Results flagged for a closer look

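Among the 18 groups formed by the 9 members and the 2 ages, 2 had a library that stood far off the rest, where about 0.9 would be flagged by chance. For Lamtor1, young library 2 was low at 666 normalised counts, with the other young libraries at 818 to 850, and its gap to the nearest was 0.845 of the whole range. For Lamtor2, old library 1 was low at 149 normalised counts, with the other old libraries at 166 to 173, and its gap was 0.752 of the range.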

How the results depend on the processing

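Over the alternatives, 169 of the 179 values computed for the 9 members and 439 of the 450 for the other 23 named genes kept their direction and their side of the threshold. The cause of the exceptions was not tested. Replacing the size factors with equal totals of non-mitochondrial reads moved the median of all genes by 0.14 on the log2 scale. Lamtor2 changed sign under that rescaling (0.092), with the length trend removed (0.40) and without young library 4, where each library left out in turn gave -0.090 to 0.0012. Lamtor4 changed sign with the length trend removed (0.21). Fnip1 changed sign under the same rescaling (0.12) and without young library 3 or old library 1, where each library left out in turn gave -0.077 to 0.062, and was called lower with the length trend removed (-0.32, limma adjusted p = 0.0245). Where a gene had to average 100 normalised counts or more, 4101 of only 5655 genes tested were called, 2040 higher and 2061 lower, and 10 genes of the 6 further lists were called lower. Flcn and the other genes under that mean had no value there. Members called higher numbered 3 with the length trend removed. With each library left out in turn, members called higher numbered 0 to 1 and lower 3 to 5, all genes called 6756 to 7561, genes called higher 3362 to 3677 and lower 3388 to 3884. In the same series the Ragulator pairs with an adjusted p under 0.05 numbered 0 to 7 and the Rragc minus Rragd change was 0.08 to 0.32. Other values that had not passed the test also moved there and were still not called. Rragc ran from -0.32 to -0.11, Lamtor5 from 0.03 to 0.17 and Tfeb from 0.16 to 0.42. The change of Lamtor2 minus Lamtor4 ran from 0.08 to 0.27, and that of Lamtor2 minus Lamtor5 from -0.23 to -0.04. No paired analysis was possible because each library came from a different mouse, sampled at 1 age only.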
